A study of Mus musculus with 9 samples.

Results

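The tripartite motif (TRIM) genes are a large family, and the 68 genes described here are those of the deposited mouse table whose symbol is Trim followed by a digit, out of 25124 genes. They were compared between ear skin carrying Staphylococcus epidermidis with and without an anti-CTLA-4 antibody, and 13 interferon-inducible members were set beside the 55 others. In 4 libraries, called S. epi + anti-CTLA-4 here, the mice received both the bacterium and the antibody, which blocks CTLA-4, a receptor that restrains T cell activation. In 5 libraries, called S. epi, they received the bacterium alone. All 9 libraries came from C57BL/6 mice whose ears were swabbed with S. epidermidis strain LM087 every other day, and whole ear tissue was taken on day 8, so that skin never given the bacterium forms no group of this comparison. The sources used here give neither the antibody's clone and dose nor the age and sex of the mice. Nothing in the labels ties a library to 1 animal, so every p-value below reflects the spread among these libraries, which may be partly technical.

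Most TRIM proteins carry a RING finger, B-box zinc fingers and a coiled coil, and act as E3 ubiquitin ligases, the enzymes that select the proteins to be tagged with ubiquitin. Many act in antiviral defence, either by binding viral capsids or by ubiquitinating the sensors and adaptors that detect foreign RNA and DNA, and part of the family is itself switched on by interferon. Other members work in muscle sarcomeres, on microtubules or as chromatin co-repressors, so the family spans immune and structural roles within 1 tissue such as the ear.

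Interferon acts on many genes through the interferon-stimulated response element (ISRE), read here as GAAA, any 2 bases and GAAA again or, on the other strand, TTTC, any 2 bases and TTTC. Promoters were taken from RefSeq (build GRCm38.p6, the mm10 sequence) as 250 bases before to 50 bases after each gene start, and 52 of the 68 members had one. The ISRE letters stood in 8 of 12 interferon-inducible members with a promoter (66.7%), in 1 of 40 other members (2.5%, Trim2), and in 1079 of 27025 genes overall (3.99%). The 8 were Trim5, Trim12a, Trim12c, Trim21, Trim26, Trim30a, Trim30d and Trim34a. The interferon-gamma-type GAS element, TTCNNNGAA, which is its own reverse complement, stood in 0 of those 12 promoters, in 5 of the 40 others (12.5%) and in 9.55% of all genes. The list was chosen for interferon response, so this is a description of the promoters and not a test of what acts on them.

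The 5 stretches printed here are shown because they place the ISRE letters, in capitals, in members that differ in the results below. Each reads 5′ to 3′ on the gene's own strand, ends before the gene start, and lies at chr7:104288116-104288185 (minus strand) for Trim5, chr7:104353350-104353408 (minus) for Trim12c, chr7:104465194-104465259 (minus) for Trim30a, chr7:104507851-104507920 (minus) for Trim30d and chr17:36836956-36837031 (plus) for Trim26.
Trim5: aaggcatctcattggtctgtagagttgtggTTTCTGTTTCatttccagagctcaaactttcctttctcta
Trim12c: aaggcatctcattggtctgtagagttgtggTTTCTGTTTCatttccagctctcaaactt
Trim30a: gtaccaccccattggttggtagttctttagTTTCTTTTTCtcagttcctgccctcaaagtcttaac
Trim30d: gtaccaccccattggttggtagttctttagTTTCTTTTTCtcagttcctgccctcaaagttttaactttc
Trim26: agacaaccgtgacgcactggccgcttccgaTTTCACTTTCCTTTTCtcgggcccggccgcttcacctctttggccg

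Trim30a and Trim30d shared 65 of 66 aligned bases (98.5%), and Trim5 and Trim12c shared 57 of 59 (96.6%), whereas Trim30a and Trim5 shared 34 of 66 (51.5%). The capitals of Trim26 hold a pair of overlapping matches. In Trim5, Trim12c, Trim30a and Trim30d the match began between 29 and 49 bases before the start. In Trim34a (TTTCAGTTTC) and Trim12a (TTTCTGTTTC) it began 11 bases after the start, and in Trim21 a pair of overlapping matches (GAAACTGAAA and GAAAGTGAAA) began 14 and 20 bases after it. RefSeq lists a further Trim30a start near the end of the span counted in the deposited table, with TTTCTTTTTC beginning 3 bases after it.

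The deposited values are TPM, reads per gene length scaled to a library total. The length listed is the genomic span of each gene, introns included. Low values times that span were whole multiples of a per-library unit, so read numbers could be recovered, at 10213773 to 13868671 reads per library. Low values were those under 100 reads in genes of a single copy with a span under 20000 bases. Of these, 100% of 51094 came within 0.1 reads of a whole number, against 20.1% to 21.4% with the spans shuffled. Larger values and longer spans were not checked, and their read numbers were rounded to the nearest whole number. TPM here is therefore per base of genomic span, and it ranks members on that scale and not per length of mature transcript. Genes lying inside another gene added their reads to it on either strand: the outer gene held at least as many reads as the inner one in 201 of 201 opposite-strand pairs and in 91 of 91 same-strand pairs. Since 34 of the 68 members overlap another annotated gene, and 12 of them a gene of the same table, a part of their reads may belong to that neighbour.

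Leukocyte marker levels were higher with the antibody. All 10 leukocyte markers rose, with a mean log2(TPM + 1) of 4.70 to 5.09 in S. epi + anti-CTLA-4 against 3.59 to 4.01 in S. epi, as did 9 of 10 monocyte and macrophage markers (5.08 to 5.59 against 3.73 to 4.53) and 8 of 9 T cell markers (2.77 to 3.20 against 1.68 to 2.04). Skeletal muscle markers, 15 in all, averaged 5.73 to 6.22 against 6.06 to 6.58, with 0 higher and 3 lower. The 7 basal keratinocyte markers, abundant in every library, averaged 7.96 to 8.14 against 8.14 to 8.25, with 0 higher and 1 lower (Col17a1). The 7 differentiated keratinocyte markers averaged 9.65 to 10.2 against 10.03 to 10.4, with 1 higher and 2 lower, and the 6 tested hair follicle markers 1.68 to 2.23 against 2.07 to 2.95, with 0 higher and 3 lower. The part of these markers in the TRIM values was not tested. Of 7 genes that track RNA handling, 1 was lower (Jun). In bulk tissue, fewer cells of a type and less RNA per cell cannot be told apart.

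Most interferon-inducible TRIM genes were higher with the antibody, and the changes of the other members lay on both sides of 0. Of 46 members that reached 1 TPM in 4 or more libraries, 8 rose and 0 fell (limma on log2(TPM + 1), Benjamini-Hochberg adjusted p under 0.05 over 15704 genes). Among all genes tested, 7.16% were called higher and 4.48% lower. Of the 8, 7 were among the 12 interferon-inducible members tested, and 1, Trim36, was among the 34 others. The median log2 change, S. epi + anti-CTLA-4 minus S. epi, was 0.45 for the interferon-inducible members, -0.03 for the others and -0.014 for all genes. It was above 0 in 11 of the 12, in 14 of the 34 and in 47.0% of all genes. Leaving out 1 library gave between 3 and 8 members higher: 3 without S. epi + anti-CTLA-4 replicate 3, 4 without its replicate 4, and 5 without its replicate 2 or without S. epi replicate 2. These counts cover members that passed the filter, and 1 of them, Trim30b, passed through its level with the antibody alone. The list was drawn up with results of these data known, so its counts describe it and do not test it.

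**Figure D1:**
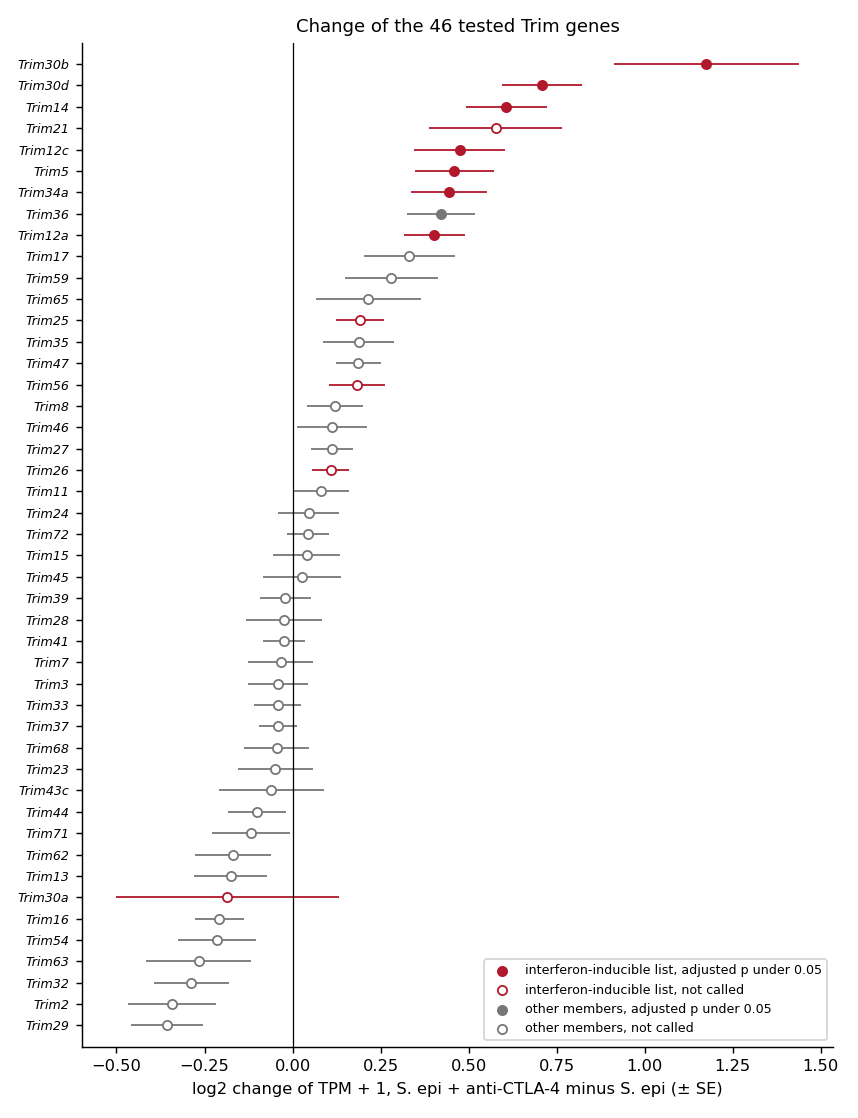
Change of the 46 tested Trim genes in log2(TPM + 1), S. epi + anti-CTLA-4 minus S. epi, with bars of ± 1 SE from limma. Filled points have an adjusted p under 0.05. The 7 filled red points of the interferon-inducible list lie between 0.40 and 1.18, Trim30a is the red point below 0, and Trim36 is the single filled grey point.

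Trim30d had the smallest adjusted p of the family. Trim30d (chr7:104470014-104507849, minus strand, mm10 spans as the table lists them) is a mouse relative of Trim30a, and its promoter sequence is the one shown above that nearly matches that of Trim30a. It had 5.34, 4.67, 5.22 and 4.30 TPM in S. epi + anti-CTLA-4, against 1.90, 2.38, 3.11, 2.73 and 2.99 TPM in S. epi. All 4 libraries with the antibody lay above all 5 without it. They averaged 4.88 ± 0.490 TPM (SD, n = 4) and the others 2.62 ± 0.492 TPM (SD, n = 5). The log2 change was 0.71, with an SE of 0.11 and a limma adjusted p of 0.0057. It rested on 1161 recovered reads in S. epi + anti-CTLA-4 and 764 in S. epi.

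Trim14 (chr4:46505072-46536141, minus strand) rose as well. TRIM14 lacks the RING finger and works as an adaptor for MAVS, the mitochondrial relay of RNA sensing. It had 4.59, 4.38, 5.88 and 4.56 TPM in S. epi + anti-CTLA-4, against 2.18, 3.51, 3.10, 2.64 and 2.82 TPM in S. epi. The groups did not overlap, and the log2 change was 0.61 (SE 0.12, limma adjusted p = 0.0113). The opposite-strand transcript Gm16731 overlaps Trim14 and held 590 reads in S. epi + anti-CTLA-4 and 431 in S. epi, where Trim14 itself held 958 and 690. Both held more reads with the antibody, and how many reads are counted in both was not tested.

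The other 5 interferon-inducible members that rose are neighbours of Trim30d in a cluster on chromosome 7. The cluster holds the rodent relatives of primate TRIM5, which binds retroviral capsids. Trim12a (chr7:104299897-104315495) had 12.4, 13.2, 13.7 and 12.8 TPM in S. epi + anti-CTLA-4, against 8.23, 8.79, 10.9, 9.49 and 10.9 TPM in S. epi. Its groups did not overlap, and its log2 change was 0.40 (SE 0.087, limma adjusted p = 0.0183). The overlapping opposite-strand Gm15133 held 108 reads in S. epi + anti-CTLA-4 and 98 in S. epi, where Trim12a held 1286 and 1162. Together, Trim30d, Trim14 and Trim12a were the members whose call held when any 1 of the 9 libraries was left out.

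Trim34a (chr7:104244457-104262236) had 10.998, 11.01, 13.0 and 12.8 TPM in S. epi + anti-CTLA-4, against 6.78, 8.88, 8.70, 8.02 and 10.4 TPM in S. epi. Trim5 (chr7:104264448-104288106) had 1.90, 2.69, 3.04 and 2.26 TPM in S. epi + anti-CTLA-4, against 1.54, 1.60, 1.60, 1.67 and 1.16 TPM in S. epi. Trim12c (chr7:104338754-104353358) had 8.00, 6.98, 7.44 and 6.94 TPM in S. epi + anti-CTLA-4, against 3.57, 4.53, 5.73, 5.21 and 6.33 TPM in S. epi. In all 3 genes the groups did not overlap, and S. epi replicate 5 was the highest S. epi library for Trim34a and Trim12c but the lowest for Trim5. The log2 changes were 0.44, 0.46 and 0.47, with limma adjusted p of 0.0302, 0.0298 and 0.0440 in that order. These calls were near the threshold: leaving out 1 library in turn kept the call in 5 of 9 fits for Trim34a and in 3 of 9 for Trim5 and for Trim12c.

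Trim30b (chr7:104355398-104358646) was the tested member with the largest log2 change, 1.18 (SE 0.26, limma adjusted p = 0.0210), and the fewest reads. It had 7, 7, 16 and 14 reads in S. epi + anti-CTLA-4, against 1, 0, 3, 0 and 6 reads in S. epi. The mean was 2.09 ± 0.686 TPM in S. epi + anti-CTLA-4 and 0.417 ± 0.550 TPM in S. epi, and the groups did not overlap. The call was lost with a pseudocount of 0.1 (log2 change 2.77) and without S. epi + anti-CTLA-4 replicate 3 (1.05) or replicate 4 (1.12). The members of this cluster are close paralogs, and reads that fit more than 1 of them may be assigned unevenly, so the split between them is uncertain.

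**Figure D2:**
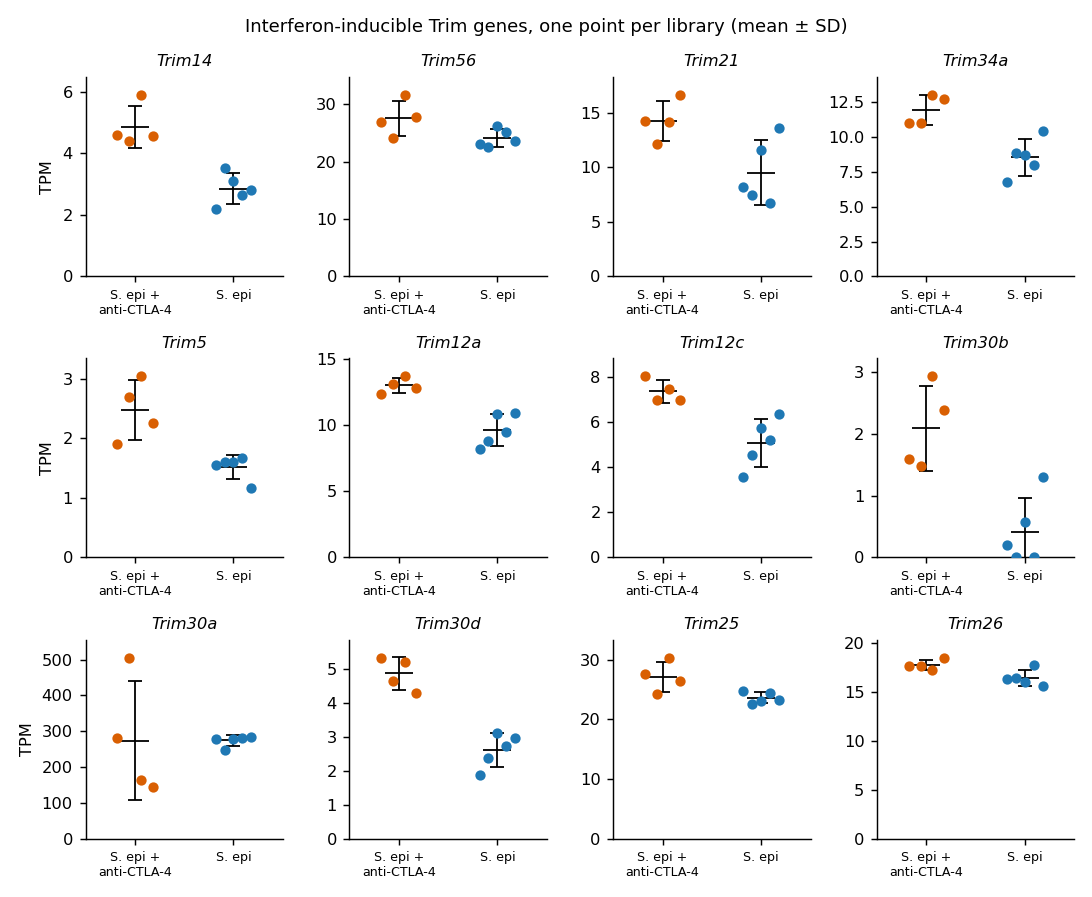
TPM of the 12 tested interferon-inducible members, 1 point per library, with the mean and ± 1 SD, for S. epi + anti-CTLA-4 (left, n = 4) and S. epi (right, n = 5). The groups do not overlap for Trim14, Trim34a, Trim5, Trim12a, Trim12c, Trim30b and Trim30d, while Trim30a spreads between 145 and 505 TPM with the antibody.

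Trim30a, the most abundant member on this scale, was not called. In the mouse it dampens Toll-like receptor signalling by promoting the breakdown of TAB2 and TAB3. It had 282, 505, 163 and 145 TPM in S. epi + anti-CTLA-4, against 279, 249, 277, 282 and 285 TPM in S. epi. Replicate 2 with the antibody lay above every S. epi library, and replicates 3 and 4 lay below every one, so the means were 274 ± 166 and 274 ± 14.6 TPM. The log2 change was -0.18 (SE 0.32, limma adjusted p = 0.760), and without S. epi + anti-CTLA-4 replicate 2 it was -0.54 (adjusted p = 0.124). Its sign turned without replicate 4 of that group (0.059), and without replicate 3 it was near 0. Its coefficient of variation was 60.6% with the antibody and 5.33% in S. epi, where the medians over the 46 members were 10.1% and 12.1%.

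The spread of Trim30a rested on large read numbers. Its libraries held 14213, 27391, 10220 and 9750 reads in S. epi + anti-CTLA-4 and between 14992 and 16356 in S. epi. The annotation places a small nuclear RNA gene, Gm25405, on the opposite strand inside the span of Trim30a (chr7:104409026-104446125), and its part in these reads was not tested. Trim30d, the adjacent paralog whose shown promoter stretch differs from that of Trim30a at 1 of 66 bases, did not share this spread. Its coefficient of variation was 10.03% in S. epi + anti-CTLA-4 and 18.8% in S. epi. The shown Trim30a stretch, at chr7:104465194-104465259, lies outside the counted Trim30a span and does not adjoin it.

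**Figure D3:**
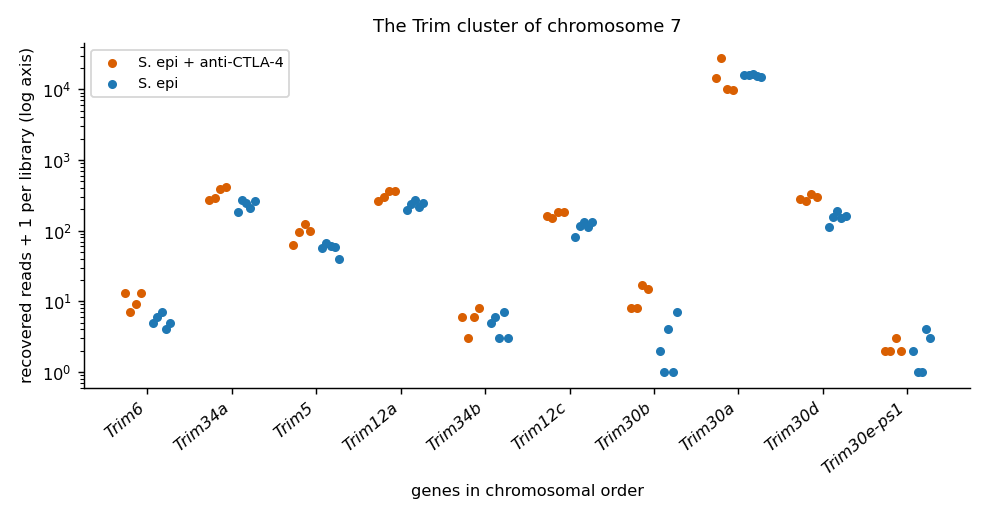
Recovered reads + 1 per library (log axis) for the genes of the chromosome 7 cluster in chromosomal order, 1 point per library, S. epi + anti-CTLA-4 left of S. epi within each gene. Trim30a holds 9750 to 27391 reads per library, every other gene at most 412, and Trim6, Trim34b, Trim30b and Trim30e-ps1 at most 16.

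The remaining interferon-inducible members were not called. Trim21, a cytosolic receptor for antibody-coated viruses, had 14.3, 12.1, 14.1 and 16.6 TPM in S. epi + anti-CTLA-4, against 8.19, 7.45, 11.6, 6.73 and 13.6 TPM in S. epi. S. epi replicate 5 lay within the range of the antibody group, and the log2 change of 0.58 had a limma adjusted p of 0.0816. Without that library the change was 0.71 and the adjusted p 0.0247. Trim25, which ubiquitinates the RNA sensor RIG-I, averaged 27.2 ± 2.51 TPM in S. epi + anti-CTLA-4 and 23.6 ± 0.930 TPM in S. epi (log2 change 0.19, limma adjusted p = 0.103).

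Trim56, linked to the sensing of cytosolic DNA, averaged 27.6 ± 3.06 TPM in S. epi + anti-CTLA-4 and 24.1 ± 1.54 TPM in S. epi (log2 change 0.18, limma adjusted p = 0.185). Trim26, encoded in the major histocompatibility region, averaged 17.8 ± 0.515 TPM in S. epi + anti-CTLA-4 and 16.4 ± 0.792 TPM in S. epi (log2 change 0.11, limma adjusted p = 0.222). Trim26 carries the overlapping ISRE matches shown above, as Trim21 and Trim30a carry theirs, and so does Trim2 outside the list. The letters were thus present in 5 of 6 members called higher with a promoter, and in 9 of all 52 members with one. The other 4 carriers were not called. The 5 called carriers all lie in the chromosome 7 cluster of close paralogs, so they are not separate cases. Trim34b had 19 reads in each group, fell below the filter, and gave an exact two-sided permutation p of 0.524. Trim30c was not analysed here.

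A test on the recovered reads, chosen after the data were seen, called more of these genes. With limma's voom and at least 10 reads in at least 4 libraries, 9 of 49 members were higher and 2 lower, where 11.5% and 7.30% of 16500 genes were. Of the 9, 7 were among the 8 above. Trim21 (log2 change 0.69, adjusted p = 0.0256) and Trim25 (0.24, 0.0191) were added, and Trim30b fell below the read minimum. A pseudocount of 1 holds down the change of members of low TPM, and the reads gave larger ones: 0.73 against 0.46 for Trim5 and 0.95 against 0.71 for Trim30d. The median of all genes in each fit differed as well, at 0.017 by voom and -0.014 on log2(TPM + 1). The part of each in the larger changes was not tested.

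Trim36 was the only member outside the interferon-inducible list that rose. It belongs to the COS-box group, whose proteins bind microtubules, and it had 2.41, 2.45, 2.80 and 1.89 TPM in S. epi + anti-CTLA-4, against 1.38, 1.72, 1.69, 1.32 and 1.52 TPM in S. epi. The groups did not overlap, and the log2 change was 0.42 (SE 0.097, limma adjusted p = 0.0234). The call held in 5 of 9 fits that left out 1 library. Of the 8 COS-box members, Trim46, Trim54 and Trim63 were also tested and not called, and Trim9, Trim42, Trim55 and Trim67 fell below the filter.

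No member was called lower by limma, where 4.48% of all genes tested were. The test on reads called 2 of 49 members lower, Trim29 and Trim2, where 7.30% of 16500 genes were. Trim29, which is abundant in stratified epithelium and lacks a RING finger, had 143, 176, 190 and 150 TPM in S. epi + anti-CTLA-4, against 231, 222, 194, 220 and 187 TPM in S. epi. Its groups overlapped by 1 library on each side. The log2 change was -0.36 (SE 0.10), and the adjusted p was 0.0528 by limma and 0.0091 by voom. With the libraries scaled to a common median, 4 members were called lower by limma: Trim29 (log2 change -0.37, adjusted p = 0.0269), Trim2 (-0.35, 0.0453), Trim16 (-0.22, 0.0481) and Trim32 (-0.30, 0.0456). Quantile normalization called the same 4 of 46. Over all 15704 genes tested, 1313 were called lower at the common median and 1431 with quantile normalization.

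Trim2, an NHL-repeat protein known from neurons, averaged 8.98 ± 0.547 TPM in S. epi + anti-CTLA-4 and 11.8 ± 2.44 TPM in S. epi, with groups that did not overlap (log2 change -0.34, adjusted p = 0.113 by limma and 0.0387 by voom). Trim16, which lacks a RING finger and has been studied in keratinocytes, had 8.71, 7.57, 9.26 and 9.59 TPM in S. epi + anti-CTLA-4, against 10.8, 10.1, 10.4, 10.2 and 9.83 TPM in S. epi. Its groups did not overlap either (log2 change -0.21, limma adjusted p = 0.0884). Trim47 averaged 28.7 ± 1.71 TPM in S. epi + anti-CTLA-4 and 25.1 ± 1.58 TPM in S. epi, again without overlap (log2 change 0.19, limma adjusted p = 0.0949). In all, the groups were apart in 9 tested members that were higher and 2 that were lower, against 8.02% and 6.39% of all genes tested.

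**Figure D4:**
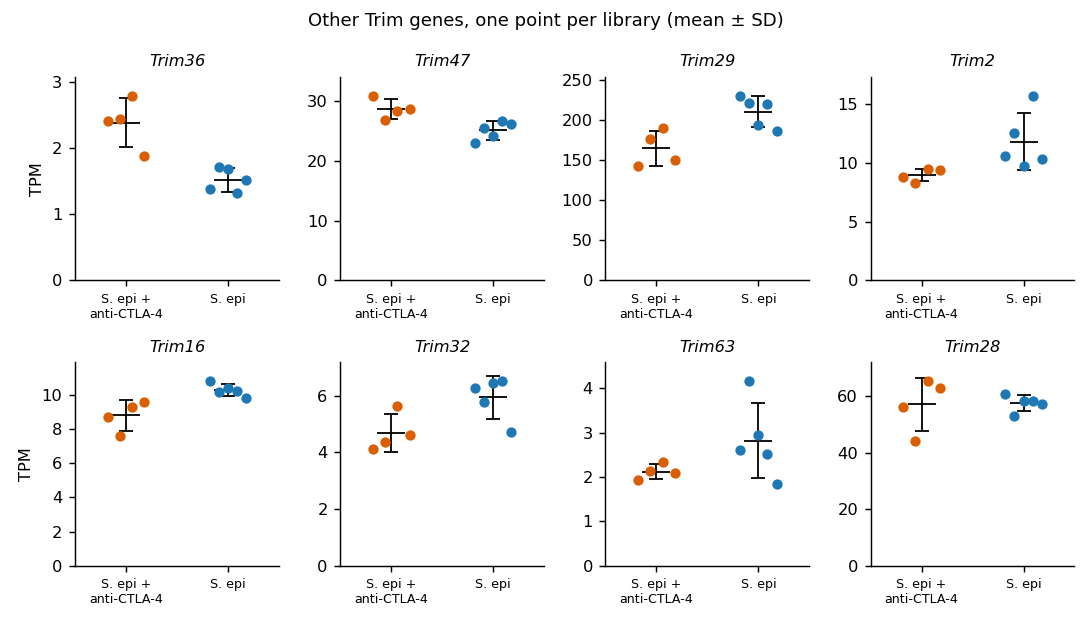
TPM of 8 members outside the interferon-inducible list, 1 point per library, with the mean and ± 1 SD, S. epi + anti-CTLA-4 (left, n = 4) beside S. epi (right, n = 5). The groups do not overlap for Trim36 and Trim47, higher with the antibody, and for Trim2 and Trim16, lower with it. Trim28 averages 57.0 and 57.4 TPM.

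The muscle members held 5 tested genes, of which 0 were called by limma and 1 had a change above 0, with a median of -0.21. Of all genes tested, 7.16% were called higher, 4.48% lower and 47.0% had a change above 0, with a median of -0.014. The sarcomere ligases Trim63 (MuRF1) and Trim54 (MuRF3) averaged 2.12 ± 0.167 and 2.54 ± 0.399 TPM in S. epi + anti-CTLA-4, against 2.82 ± 0.851 and 3.11 ± 0.508 TPM in S. epi. Their relative Trim55 (MuRF2) fell below the filter, at 0.668 TPM in S. epi + anti-CTLA-4 and 0.844 TPM in S. epi (exact two-sided permutation p = 0.0952). Trim32, whose human counterpart is mutated in a limb-girdle muscular dystrophy, averaged 4.68 ± 0.669 TPM in S. epi + anti-CTLA-4 and 5.94 ± 0.746 TPM in S. epi (log2 change -0.29, limma adjusted p = 0.117). Trim72 (MG53), a membrane repair protein, averaged 13.2 ± 0.749 and 12.7 ± 0.646 TPM, and Trim7, a partner of glycogenin, 32.5 ± 3.42 and 33.3 ± 3.36 TPM, in S. epi + anti-CTLA-4 and in S. epi. The skeletal muscle markers stood at the ranges given above, and their part in these values was not tested.

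The 3 tested chromatin members of the TIF1 group had log2 changes smaller than their SE. Trim28 (KAP1), the co-repressor of KRAB zinc finger proteins, averaged 57.0 ± 9.48 TPM in S. epi + anti-CTLA-4 and 57.4 ± 2.75 TPM in S. epi, a log2 change of -0.024 (SE 0.11, limma adjusted p = 0.913). Trim24 averaged 7.39 ± 0.426 and 7.17 ± 0.943 TPM, and Trim33 12.1 ± 0.813 and 12.5 ± 0.835 TPM, in S. epi + anti-CTLA-4 and in S. epi, neither called. Trim66 held 28 reads in S. epi + anti-CTLA-4 and 29 in S. epi. Of the most abundant members not yet given, Trim8 averaged 30.2 ± 2.39 and 27.7 ± 2.52 TPM, Trim11 29.5 ± 3.45 and 27.7 ± 1.11 TPM, and Trim41 27.4 ± 0.939 and 27.9 ± 1.77 TPM in the same order, none called. Over the 34 other members tested, log2 changes ran between -0.36 and 0.42, and 15 of them lay within 0.1 of 0.

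The other 22 members did not reach the filter, and 9 of them had 10 reads or fewer over all 9 libraries. Trim61 had no read in any library, which does not show that the gene is silent. Trim6, the first gene of the chromosome 7 cluster, had 12, 6, 8 and 12 reads in S. epi + anti-CTLA-4, against 4, 5, 6, 3 and 4 reads in S. epi. In TPM its groups did not overlap (0.371 TPM in S. epi + anti-CTLA-4, 0.173 TPM in S. epi), and the exact two-sided permutation p was 0.0159, the smallest that 126 splits of 9 libraries allow and not adjusted over the 22 members. Trim42 had 8 reads in S. epi + anti-CTLA-4 and 27 in S. epi (exact two-sided permutation p = 0.0317). Both were named after their values were seen, and they were the only 2 of the 22 with an exact p under 0.05. The share of all genes below the filter with such a p was not computed, so this count is not read as a result.

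The mean log2(TPM + 1) of the 12 interferon-inducible members per library was 3.68 to 3.80 in S. epi + anti-CTLA-4, against 3.16 to 3.46 in S. epi, and did not overlap. That of the 34 other members was 3.35 to 3.52 against 3.35 to 3.50. The libraries with more leukocyte marker signal were those with the antibody. With Trim30a among the 12, the order of replicates was the same on both scales within S. epi + anti-CTLA-4, but not within S. epi. Replicates 1 to 4 with the antibody had interferon-inducible TRIM levels of 3.71, 3.73, 3.80 and 3.68. Their leukocyte levels were 4.83, 5.01, 5.09 and 4.70. Without Trim30a, the TRIM levels of these 4 replicates were 3.30, 3.25, 3.48 and 3.36, in an order unlike that of their leukocyte levels. Replicates 1 to 5 of S. epi had interferon-inducible TRIM levels of 3.16, 3.22, 3.41, 3.26 and 3.46 and leukocyte levels of 3.67, 3.90, 4.01, 3.59 and 3.91. Of these, replicates 3 and 5 were the highest on both scales, while replicate 2 was near replicate 5 in leukocyte level and below replicate 4 in TRIM level. The marker ranges of the groups do not overlap, so leukocyte content and the antibody cannot be told apart. With the leukocyte marker level as a covariate, 0 members and 0 genes were called higher, and the interferon-inducible median was 0.010. With the skeletal muscle marker level as a covariate, 0 members and 0 genes were called higher as well, and that median was 0.36.

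**Figure D5:**
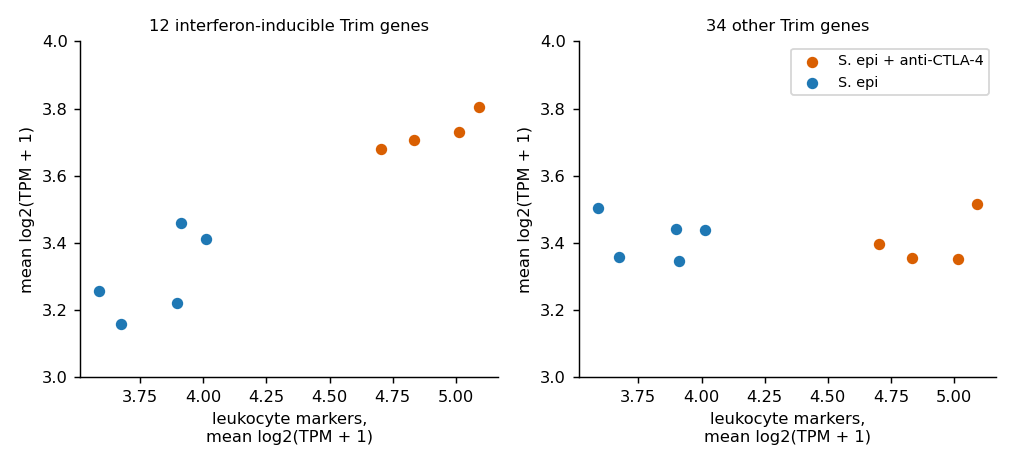
Mean log2(TPM + 1) of the 12 interferon-inducible (left) and 34 other (right) tested Trim genes against the mean log2(TPM + 1) of 10 leukocyte markers, 1 point per library. Libraries with the antibody lie at 4.70 or higher on the marker axis and those without it at or below 4.01, and the interferon-inducible mean is higher in every library with the antibody, while the other members overlap between groups.

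Genes that encode TRIM proteins under other names, or that act with them, moved in the following numbers. Mefv, which encodes pyrin, an inflammasome sensor of myeloid cells, averaged 10.8 ± 1.43 TPM in S. epi + anti-CTLA-4 and 4.48 ± 1.41 TPM in S. epi (log2 change 1.13, limma adjusted p = 0.0056). Pml, the organiser of nuclear bodies, averaged 9.80 ± 1.02 TPM in S. epi + anti-CTLA-4 and 7.23 ± 0.665 TPM in S. epi (log2 change 0.39, limma adjusted p = 0.0188). Both rose, while the microtubule-binding Mid2 fell, at 8.26 ± 0.239 TPM in S. epi + anti-CTLA-4 against 9.50 ± 0.255 TPM in S. epi (log2 change -0.18, limma adjusted p = 0.0428), and Mid1 was not called.

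Among 18 RNA and DNA sensing partners, 6 rose and 0 fell by limma, with a median log2 change of 0.080 and 12 above 0, where 7.16% of all genes tested were called higher, 4.48% lower and 47.0% had a change above 0. The 6 were the RNA sensors Ddx58 (RIG-I), Ifih1 (MDA5) and Dhx58 (LGP2), the antiviral Zc3hav1, the STING gene Tmem173 and the transcription factor Irf7. Dhx58 averaged 10.5 ± 0.670 TPM in S. epi + anti-CTLA-4 and 5.29 ± 1.42 TPM in S. epi (log2 change 0.90), and Irf7 averaged 59.3 ± 7.52 TPM in S. epi + anti-CTLA-4 and 30.6 ± 8.16 TPM in S. epi (0.96). Tmem173 changed by 0.94 and Zc3hav1 by 0.27.

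Of 12 ubiquitin and ISG15 conjugation partners, 3 rose and 0 fell by limma, beside 7.16% and 4.48% of all genes tested, with a median of 0.045. The 3 were Isg15, the ubiquitin-like modifier, with its activating enzyme Uba7 and its conjugating enzyme Ube2l6, at log2 changes of 1.14, 0.79 and 0.83. The ISG15 protease gene Usp18 had a log2 change of 0.47 and was not called (limma adjusted p = 0.0573). Of 12 interferon receptor and signalling genes, 5 rose and 0 fell beside the same shares of all genes, all 12 had log2 changes above 0, and the median was 0.39. The receptor chains Ifnar2 and Ifngr1 changed by 0.62 and 0.44, the kinase Jak2 by 0.34 and the transcription factor Irf9 by 0.53, and Ifnar1 was the other gene that rose. The leukocyte marker ranges given above differed between the same 2 groups of libraries, and their part in these lists was not tested.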

How the data were processed

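The deposited table holds TPM values for each gene and library, made by the authors. The build was mm10 and the tools included HOMER, STAR and DESeq2, per the submitters' processing notes, and neither versions and roles nor the annotation stand in the sources used here. Per the labels' protocols, RNA came from a skin region of about 1 mm, with 500 ng used per library. Groups came from the sample titles. The groups' log2(TPM + 1) values were tested by limma (version 3.58.1, R 4.3.3; variances following the mean, no covariate, two-sided) in every gene that reached 1 TPM in 4 or more libraries, with Benjamini-Hochberg adjustment over all of them and a threshold of 0.05. The scripts were tested on simulated data. Read numbers were recovered from TPM times the listed length, and a voom fit on them, a filter on 10 reads and a list without Trim30a were chosen later, with the data in view.

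The members and lists were chosen with earlier results of these data known. Values are given for every member of the interferon-inducible, muscle and TIF1 lists, every member called, the 8 with the highest mean TPM, up to 4 uncalled members nearest the threshold and up to 4 genes of each partner list with the smallest p. Members below the filter were compared by an exact permutation test. The labels do not say that a replicate number marks a shared animal, litter or day. Same-numbered libraries correlated at -0.093 to 0.018 in their deviations from the group means. With so few pairs, these correlations cannot decide whether the libraries were paired.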

Additional observations from a re-analysis of the deposited data

Results flagged for a closer look

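In 92 groups of 4 or 5 libraries (46 tested members, 2 groups each), 4 members had 1 library set apart from the rest of its group by Dixon's criterion, which chance meets in about 1 in 20 groups. Trim14 reached 5.88 TPM in S. epi + anti-CTLA-4 replicate 3, the highest of its group, and its call held without that library. Trim5 was lowest in S. epi replicate 5, at 1.16 TPM, and its call was lost without that library. Trim30a was lowest in S. epi replicate 2, at 249 TPM, and Trim71, an RNA-binding protein of early embryos, was also lowest there, at 2.21 TPM, and neither was called.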

How the results depend on the processing

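Of the 201 alternative values for the 8 members called higher, 196 kept their sign and 46 lost the call. The 5 that changed sign, all among the lost calls, did so with the leukocyte covariate: Trim12a -0.069, Trim34a -0.026, Trim12c -0.015, Trim14 -0.11 and Trim36 -0.31. For the 38 uncalled members, 941 of 979 values kept their sign and 22 gained a call. The count of members higher, 8, became 3 at a filter of at least 5 TPM, 4 with the replicate block and 0 with either the skeletal muscle or the leukocyte covariate, and ranged between 3 and 8 without 1 library. It was 3 without S. epi + anti-CTLA-4 replicate 3, 4 without replicate 4, 5 without replicate 2 and 5 without S. epi replicate 2. The count of members lower, 0, became 1 with no filter, 4 at a common median, 4 with quantile normalization, 3 once the 50 most abundant genes left the total, 1 among protein-coding genes, 2 at an adjusted p under 0.1, 2 with voom and 1 at 10 reads, and ranged between 0 and 2 without 1 library. Over all genes, 1124 higher became 593 (replicate block), 0 (muscle covariate), 0 (leukocyte covariate) and 1897 (voom), and ranged between 706 and 1094 without 1 library. The 704 lower became 1313 (common median), 1431 (quantile), 1306 (50 most abundant out), 88 (replicate block), 1 (muscle covariate), 1 (leukocyte covariate), 1260 (adjusted p under 0.1) and 1204 (voom), and ranged between 337 and 703. The interferon-inducible median, 0.45, became 0.30 at 5 TPM, where fewer members are tested, 0.010 with the leukocyte covariate, 0.42 with a broader list and 0.46 without Trim30a. The cause of the other moves was not tested. With 10213773 to 13868671 reads per library, 9 members had 10 reads or fewer in all, and voom could not be run on Trim30b at its read minimum. For the paired fit, no library correlated best with its own number.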
